A study of Mus musculus with 2 samples.

Results

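The replication-dependent histone genes of mouse liver at embryonic day 15.5 are described here as a whole class. Members were the rows of both deposited gene tables that GENCODE M21 names as protein-coding genes with a symbol beginning Hist1h, Hist2h, Hist3h or Hist4h. The rule gave 67 genes, of which 64 had a row among the 43346 genes of the tables: 6 H1, 18 H2a, 15 H2b, 12 H3 and 13 H4 genes. The other 3 (Hist1h2bh, Hist1h2bm and Hist2h2bb) were not analysed here. The rule reads gene names only.

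Total RNA was sequenced from whole liver of mouse embryos of strain B6NCrl at 15.5 days, in 2 libraries that the labels give as biological replicates of 1 group. Replicate 1 was the pooled liver of 78 embryos and replicate 2 that of 62 embryos, both sexes together. The input was 10 ng of RNA longer than 200 nt per library, extracted with mirVana reagents, with spike-in RNAs added. The 2 libraries share every condition, with no treatment, mutant or second age, so the values describe 1 tissue at 1 age and each pool averages over many animals. Of 34039441 expected counts in replicate 1 and 44200863 in replicate 2, spike-ins left out, the class took 68507 and 107684. Levels are TPM, an abundance corrected for transcript length, rescaled after spike-ins were left out. Errors are SD over the 2 libraries (n = 2). The 7 listed hepatocyte genes summed to 40222 and 31757 TPM, and the 7 erythroid genes to 312156 and 322197 TPM, in replicates 1 and 2. All 14 stood at 1 TPM or more in both libraries.

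Replication-dependent histones supply the nucleosome cores (H2a, H2b, H3 and H4) and the linker histone (H1) that package newly made DNA. Their genes sit in clusters, mostly lack introns and are switched on in S phase through the coactivator Npat. Most of their messengers end without a poly(A) tail at a conserved stem-loop, which is bound by Slbp and cut with the help of the U7 small nuclear RNA. Fetal liver of this age is rich in dividing blood cell precursors.

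The stem-loop was looked for after the coding end in 1 GENCODE M21 transcript of each member, as a 6-base inverted repeat that starts with GG, around a 4-base loop. In 44 of 50 members with at least 16 nt after the coding end it was found, 22 to 59 nt past that end, and the annotated transcript of the other 14 stopped too early to hold one. The 44 copies had 8 different sequences. The lines give 1 member for each, 5′ to 3′ as DNA, with the stem in capitals and the loop between. They show that the stem differed between H4 and the other types.

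Hist1h2ap: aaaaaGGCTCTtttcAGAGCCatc
Hist1h3c: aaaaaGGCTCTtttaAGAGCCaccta
Hist1h3g: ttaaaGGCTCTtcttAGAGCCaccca
Hist2h2ac: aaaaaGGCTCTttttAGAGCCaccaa
Hist1h4d: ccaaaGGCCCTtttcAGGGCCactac
Hist1h4i: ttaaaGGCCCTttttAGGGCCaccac
Hist1h4a: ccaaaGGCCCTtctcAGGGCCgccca
Hist1h4b: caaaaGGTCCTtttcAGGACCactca

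Both arms of the stem set H4 apart from the other types without exception among the matches. All 32 matching H1, H2a, H2b and H3 members had the stem of Hist1h2ap, and 0 of 12 matching H4 members had it. Among the H4 members, 10 had the stem of Hist1h4d and 2 that of Hist1h4b. The whole Hist1h2ap form stood in 24 members, the Hist1h3c form in 6, the Hist1h4d form in 7, and the Hist1h4i and Hist1h4b forms in 2 each. The remaining 3 forms stood in 1 member each. The Hist1h2ap stem-loop lies on the minus strand at chr13:21833029-21833044, 3 nt before the annotated end of the transcript, and that of Hist1h4d on the plus strand at chr13:23581950-23581965 (GRCm38). In 19 members the annotated transcript ended within 50 nt past the stem-loop, and in 25 it ran further. The 6 members with at least 16 nt but no match were Hist1h2bc, Hist2h3b, Hist2h2be, Hist1h1a, Hist1h2bq and Hist1h2br. Hist2h3b and Hist1h1a have only 37 and 48 nt after the coding end. A stem-loop at many of the positions found in other members would be cut off there. A missing match says only that these letters are not in the annotated transcript.

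Promoter windows of RefSeq (GRCm38.p6), 250 bases before to 50 after the start, could be matched to 59 of 64 members. In 8 of them the RefSeq start lay over 50 nt from the GENCODE start. The 120 bases just before the start are given for the highest H2a, H3 and H4 genes and for Hist1h2br, the head-to-head partner of the first. Hist1h1e and Hist1h2bg are not the highest of their types and were chosen after the search, as genes whose stretches hold the H1 box and the octamer. Any motif match on either strand is in capitals. The 4 motifs searched were the core of the TATA box (TATAAA), the CCAAT box, 7 bases of the octamer known from H2b promoters (TTTGCAT) and the H1 box known from linker histone promoters (AAACACA). The Hist1h1e stretch lies at chr13:23622559-23622678, minus strand. That of Hist1h2ap lies at chr13:21833476-21833595, minus strand, and that of its neighbour Hist1h2br at chr13:21833623-21833742, plus strand. The stretch of Hist1h2bg, an H2b gene, lies at chr13:23571280-23571399, plus strand, Hist1h3i at chr13:21783398-21783517, minus strand, and Hist1h4d at chr13:23581448-23581567, plus strand.

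Hist1h1e: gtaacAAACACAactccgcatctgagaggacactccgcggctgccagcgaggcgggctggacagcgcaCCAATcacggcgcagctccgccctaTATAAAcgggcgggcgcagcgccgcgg
Hist1h2ap: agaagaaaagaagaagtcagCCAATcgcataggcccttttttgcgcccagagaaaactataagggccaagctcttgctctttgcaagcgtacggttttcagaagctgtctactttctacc
Hist1h2br: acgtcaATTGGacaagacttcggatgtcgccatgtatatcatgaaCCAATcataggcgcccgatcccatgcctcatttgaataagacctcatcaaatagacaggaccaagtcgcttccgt
Hist1h2bg: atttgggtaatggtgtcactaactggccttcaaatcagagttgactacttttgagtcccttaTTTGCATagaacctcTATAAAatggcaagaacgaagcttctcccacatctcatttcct
Hist1h3i: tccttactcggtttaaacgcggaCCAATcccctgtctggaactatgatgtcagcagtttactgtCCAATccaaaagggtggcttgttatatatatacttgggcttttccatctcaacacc
Hist1h4d: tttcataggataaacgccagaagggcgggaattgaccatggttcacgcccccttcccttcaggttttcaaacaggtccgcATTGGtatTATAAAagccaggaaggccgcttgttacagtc

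Over the whole windows, CCAAT stood in 50 of 59 members (84.7%), against 37.4% of all 32817 promoter windows. It was in all 6 H1, 18 H2a, 13 H2b and 10 H3 windows and in 3 of 12 H4 windows. TATAAA stood in 59.3% of members and 13.6% of all windows. AAACACA stood in 5 of 6 H1 windows, 2 H2a, 1 H2b, 0 H3 and 0 H4 windows, and in 7.19% of all windows. TTTGCAT stood in 4 of 13 H2b windows, 7 of 18 H2a windows and 1 H4 window, and in 4.63% of all windows. The windows of head-to-head H2a and H2b genes overlap, so the same match of any motif can be counted for both partners. Within the 120-base stretches TTTGCAT stood only in the H2b genes Hist1h2bk, Hist1h2bg and Hist1h2bb and the H2a gene Hist3h2a. No 2 of these motifs overlapped in a member. Hist1h2ap, the most abundant member by far, had a CCAAT match but no TATAAA match, and Hist1h4d had both. The median member with TATAAA stood at 7.59 and 8.54 TPM in replicates 1 and 2, and the median member without it at 7.43 and 8.67 TPM, so the levels of both sets overlapped. A match is a description of letters and not a bound site.

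The class summed to 5170 TPM in replicate 1 and 6145 TPM in replicate 2, which is 0.566% ± 0.0689 of all TPM (SD, n = 2). At 1 TPM or more in both libraries stood 52 of 64 members (81.2%), against 53.1% of all 21474 protein-coding genes. At 10 TPM or more in both stood 26 members, at 50 TPM or more 9, and at 100 TPM or more 5. The median member stood at 7.50 and 8.39 TPM. A single gene, Hist1h2ap, an H2a gene, held 66.6% of class TPM in replicate 1 and 68.2% in replicate 2. The 10 highest members held 90.7% and 90.8%, and the 20 highest 95.8% in both libraries. In bulk tissue, fewer cells that use a gene and less RNA per cell cannot be told apart.

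**Figure D1:**
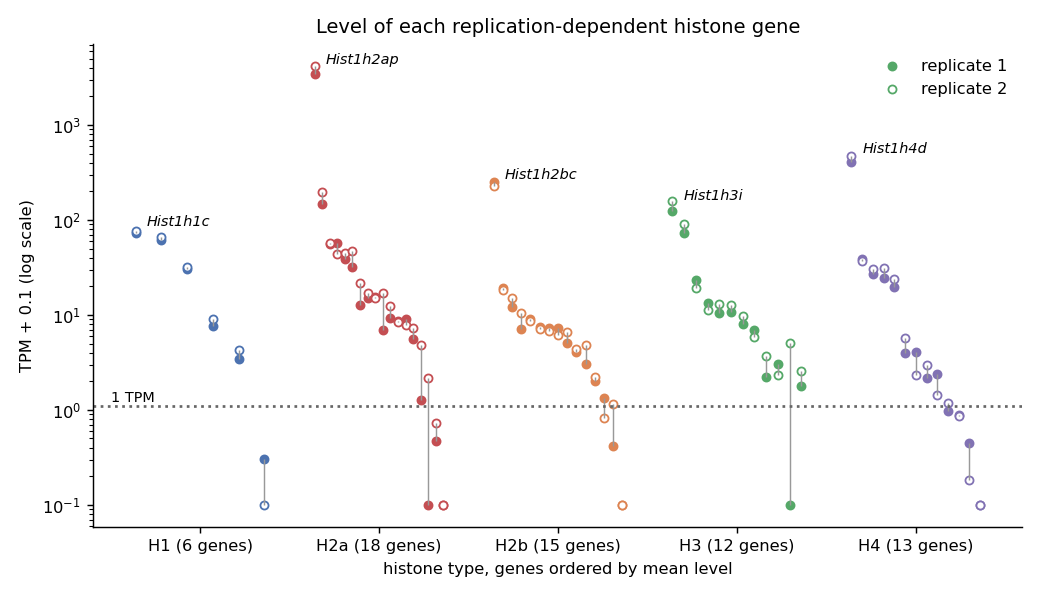
Level of each of the 64 members as TPM + 0.1 on a log axis, by histone type and in order of mean level, with replicate 1 filled and replicate 2 open. One H2a gene, Hist1h2ap, stands at 3441 and 4192 TPM, and the leading gene of each other type is named.

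The 5 types differed in their sums. H2a genes reached 3854 and 4694 TPM in replicates 1 and 2, H4 genes 531 and 612 TPM, H2b genes 333 and 317 TPM, H3 genes 276 and 333 TPM, and H1 genes 176 and 188 TPM. The libraries of neighbouring types in this order did not overlap, except H2b and H3, which did. The H4 sum uses the deposited length of 393 nt for Hist1h4d, which held 76.7% and 77.8% of it. GENCODE M21 gives that gene 1138 nt, and the sums were not recomputed with this length. The order below H2a changed without length correction. Expected counts scaled to the same total as TPM gave 159 and 175 for H1, above H3 at 102 and 125, and H4 at 188 and 223 overlapped H2b at 193 and 187. The median member gave another order, with H1 at 19.0 and 20.3 TPM, H2a at 11.0 and 15.9, H3 at 9.15 and 10.4, H2b at 7.0 and 6.59, and H4 at 3.86 and 2.86 TPM. Without Hist1h2ap, the H2a genes summed to 413 and 502 TPM, below the H4 genes, which kept their own highest gene. With the highest member of each type removed, H2a averaged 458 TPM and H4 129.8 TPM, and H2a stayed the highest type.

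**Figure D2:**
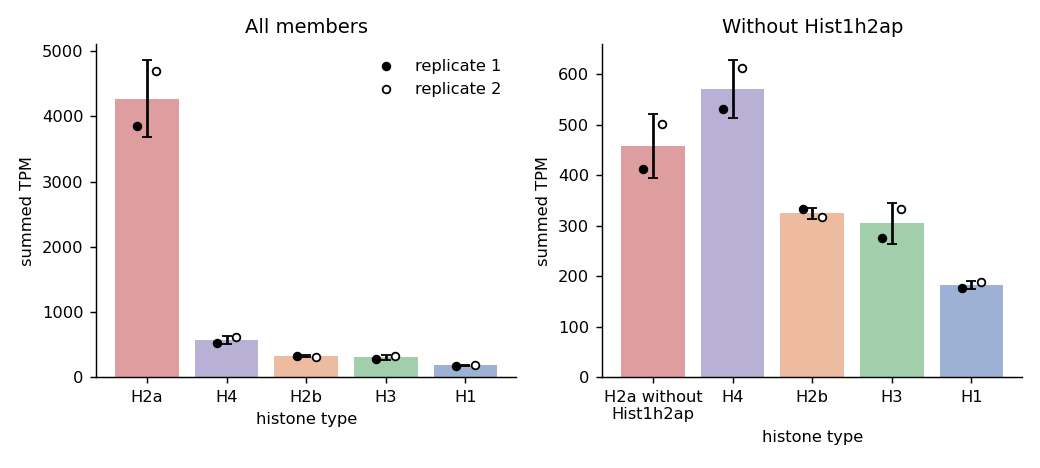
Summed TPM by histone type with all members (left) and without Hist1h2ap (right). Bars are means, error bars SD over 2 libraries, and points the libraries. With all members H2a averages 4274 ± 595 TPM and H4 572 ± 57.1 TPM. Without Hist1h2ap the H2a sum of 458 ± 63.4 TPM lies below H4, which keeps its own highest gene, Hist1h4d. The H4 sum uses the deposited length of Hist1h4d, 393 nt, against 1138 nt in GENCODE M21.

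H1 proteins bind the linker DNA between nucleosomes. Hist1h1c stood at 73.1 and 77.1 TPM in replicates 1 and 2, Hist1h1e at 61.6 and 66.0, and Hist1h1b at 30.5 and 31.7 TPM. These 3 genes were above every other H1 gene in both libraries and held the bulk of the type. Hist1h1d followed at 7.59 and 9.00 TPM and Hist1h1a at 3.37 and 4.21 TPM. Hist1h1t, the linker histone of male germ cells, had 4 counts in replicate 1 (0.207 TPM) and a count of 0 in replicate 2, which allows up to 3 counts. All 6 encode different proteins.

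H2a proteins pair with H2b in the core particle. Hist1h2ap (chr13:21833026-21833507, minus strand, 482 nt) stood at 3441 TPM in replicate 1 and 4192 TPM in replicate 2, averaging 3816 ± 531 TPM, and ranked 18 among all genes. It held 89.3% of H2a TPM in each library. The next, Hist1h2ae (chr13:23570517-23571220), stood at 146 and 196 TPM, and Hist1h2ab, Hist2h2aa2, Hist1h2ak and Hist2h2aa1 had means of 39.4 to 56.3 TPM. Each of the last 4 overlapped its neighbour in that order over the libraries, while Hist1h2ap and Hist1h2ae each stood clear of the genes below. Identical proteins are encoded by 9 of 18 H2a genes, Hist1h2ap and Hist1h2ae among them, and these 9 summed to 3678 and 4510 TPM, or 95.5% and 96.1% of the type. Hist2h2aa1 and Hist2h2aa2 share another protein and summed to 88.2 and 91.2 TPM. Singly they crossed over, Hist2h2aa2 at 56.7 and 43.9 TPM and Hist2h2aa1 at 31.5 and 47.4 TPM in replicates 1 and 2. The split between these 2 copies is uncertain. The posterior SD (described below) was 14.4% and 11.0% of the posterior mean count for Hist2h2aa1, and 8.9% and 13.8% for Hist2h2aa2.

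Further down, Hist2h2ac stood at 15.0 and 16.7 TPM and Hist3h2a at 15.4 and 15.1 TPM. Hist1h2ag stood at 12.7 and 21.6 TPM, Hist1h2ai at 6.90 and 17.1 TPM, and Hist1h2an at 9.23 and 12.2 TPM, all 3 lower in replicate 1. Hist1h2ah, Hist1h2af and Hist1h2ac lay between 5.53 and 9.04 TPM in either library, and Hist1h2ad stood at 1.17 and 4.71 TPM. Hist2h2ab was the lowest H2a gene with counts in both libraries, at 0.373 and 0.630 TPM. Hist1h2aa, the H2a form of the testis, had a count of 0 in both libraries.

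Hist1h2bc (chr13:23684199-23692908, plus strand) was the highest H2b gene at 249 and 226 TPM and held 74.7% and 71.1% of the type. The other 14 H2b genes stood below 20 TPM. Hist1h2bj followed at 18.9 and 18.4 TPM, Hist1h2bk at 12.1 and 15.1 TPM, Hist1h2bn at 7.0 and 10.5 TPM and Hist3h2ba at 8.91 and 8.54 TPM. Hist2h2be, the only H2b member of the Hist2 cluster analysed here, stood at 7.15 and 6.05 TPM. Hist1h2bb, Hist1h2bg, Hist1h2bp, Hist1h2bl and Hist1h2bf lay between 2.95 and 7.41 TPM in either library. Hist1h2be stood at 1.91 and 2.12 TPM and Hist1h2bq at 1.22 and 0.723 TPM. The lowest H2b gene with a count was Hist1h2br, at 0.321 and 1.04 TPM. Hist1h2ba, the H2b form of the testis, had a count of 0 in both libraries, as did its H2a partner Hist1h2aa. Of 6 listed testis genes, 0 reached 1 TPM, and together they summed to 0.300 and 0.464 TPM.

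H3 and H4 form the tetramer at the heart of the core particle. The 12 H3 genes encode only 2 proteins. One protein comes from Hist1h3a, Hist1h3g, Hist1h3h and Hist1h3i, which summed to 145 and 179 TPM, and the other from the remaining 8, which summed to 131 and 154 TPM. In each library the first sum was above the second, but the ranges over libraries overlapped. Hist1h3i (chr13:21782960-21783370) led at 125 and 157 TPM, Hist2h3b (chr3:96268654-96269141) followed at 72.3 and 91.6 TPM, and Hist1h3d stood at 23.2 and 19.0 TPM. Hist1h3g, Hist1h3b, Hist1h3c and Hist1h3a lay between 5.81 and 13.4 TPM in either library, and Hist1h3e stood at 2.13 and 3.59 TPM. The lowest H3 gene by its mean, Hist1h3f, stood at 1.67 and 2.49 TPM. In the Hist2 cluster, Hist2h3c2 stood at 10.3 and 12.9 TPM and Hist2h3c1 at 2.93 and 2.24 TPM.

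All 13 H4 genes encode 1 protein, from 12 different coding sequences. Hist1h4d (chr13:23581598-23582735, plus strand) led at 408 and 476 TPM and held 76.7% and 77.8% of the type. Hist1h4i followed at 38.3 and 37.1 TPM, Hist2h4 at 27.1 and 30.5 TPM and Hist1h4n at 24.5 and 30.8 TPM, and the last 2 overlapped in level. Hist1h4c stood at 19.5 and 23.7 TPM. Below it, Hist1h4h, Hist1h4k, Hist1h4b, Hist1h4f and Hist1h4j lay between 0.764 and 5.68 TPM in either library. Hist1h4a, at 0.352 and 0.0826 TPM, was the lowest with a count, and Hist1h4m had a count of 0 in both libraries. Hist4h4, the single member of the Hist4 locus, stood at 0.870 and 1.08 TPM.

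The level of Hist1h4d depends on the length given to it. The deposited tables give its transcript 393 nt, and GENCODE M21 gives 1138 nt. At the same counts a longer length gives a lower TPM, so the H4 sum and its place in the order depend on the length. The order of the types was not recomputed with the longer length. Its expected counts were 3733 and 5875, and those of Hist2h4, with a deposited length of 1630 nt, were 1292 and 1958. Lengths or transcript versions differed between the tables and M21 for 20 members, and the levels of these depend on length in the same way. Among them were Hist1h2bc (736 nt in the tables and 1156 nt in M21), Hist1h2ae (460 and 704 nt), Hist1h1e (748 and 1930 nt) and Hist1h3d (560 and 1249 nt). Hist1h2bq, Hist4h4 and Hist1h4h were shorter in M21.

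The Hist1 locus on chromosome 13 held 52 members and 95.2% and 95.5% of class TPM. Hist2 on chromosome 3 held 9 members with 223 and 252 TPM, Hist3 on chromosome 11 held 2 with 24.4 and 23.6 TPM, and Hist4 on chromosome 6 held 1. Within Hist1 the members fell into 2 blocks on either side of a gap of 1488 kb between the starts of neighbouring members. The block with the lower coordinates had 22 members and 73.3% and 75.2% of class TPM, most of it from Hist1h2ap, and the other had 30 members and 21.9% and 20.3%. High and low members lay side by side. Hist1h2ap stood at 3816 TPM on average and its neighbour Hist1h2br at 0.682 TPM.

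**Figure D3:**
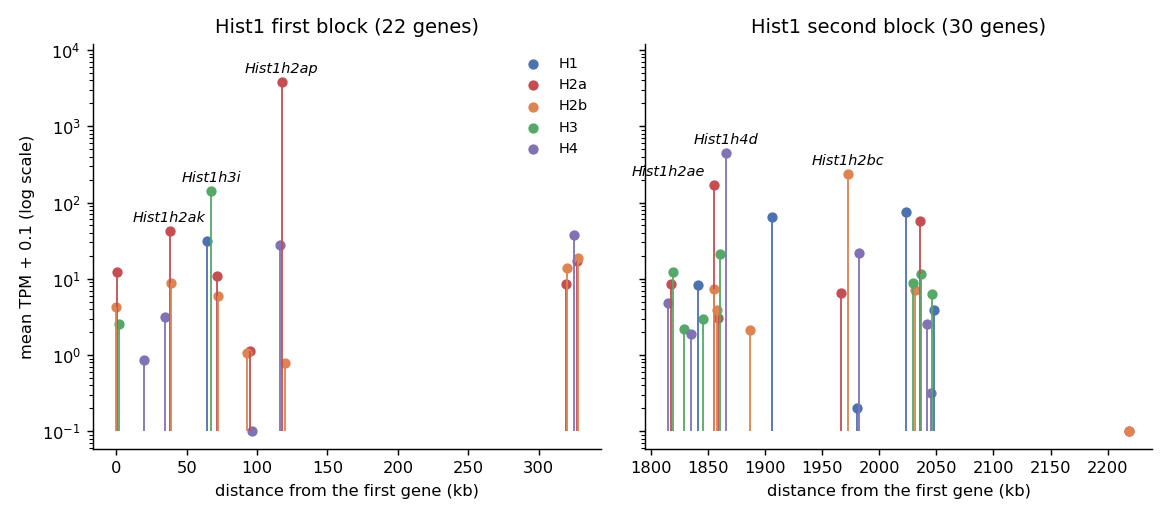
Mean TPM + 0.1 (log axis) of the 52 Hist1 members against their distance from the first gene, for the blocks of 22 (left) and 30 members (right). Neighbours differ widely, as Hist1h2ap at 3816 TPM and Hist1h2br at 0.682 TPM show.

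Many H2a and H2b genes are arranged head to head and share the stretch between their starts. There were 12 such pairs, 176 to 306 nt apart. By TPM alone, the H2a gene was higher in both libraries, with no overlap, in 6 pairs, the H2b gene in 2, and the libraries overlapped or stood at 0 in 4. Some of these differences lay within the authors' intervals. The intervals of Hist1h2ai and Hist1h2bl overlapped in replicate 1. Those of Hist1h2an and Hist1h2bp, and of Hist1h2ah and Hist1h2bk, overlapped in both libraries. The widest gap was between Hist1h2ap (3441 and 4192 TPM) and Hist1h2br (0.321 and 1.04 TPM), 236 nt apart, whose 120-base stretches are printed above. Hist1h2ae (146 and 196 TPM) was well above Hist1h2bg (7.41 and 6.96 TPM). Hist1h2ac (5.53 and 7.11 TPM) was far below Hist1h2bc (249 and 226 TPM), the reverse order at a distance of 251 nt. In 3 pairs the H2a gene, and in 1 the H2b gene, was higher by more than 2-fold in both libraries on the log2(TPM + 1) scale.

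**Figure D4:**
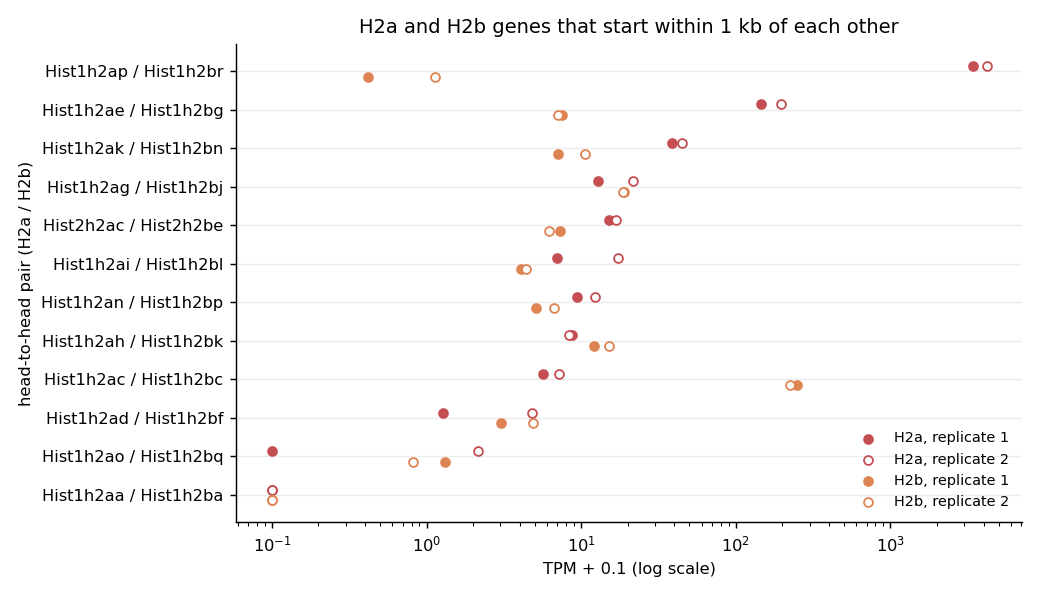
TPM + 0.1 (log axis) of the H2a gene (red) and the H2b gene (orange) of each of 12 head-to-head pairs, replicate 1 filled and replicate 2 open. By TPM alone, without the authors' intervals, the H2a gene stands above its partner in both libraries in 6 pairs. Hist1h2bc at 249 and 226 TPM stands far above Hist1h2ac.

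Members of a type are so alike that reads can fit several genes. For the 44 members whose transcript is the same in the tables and in M21, each 100-nt window was looked up in the transcripts of all other genes, on both strands. In 4 members no window was unique: Hist2h2aa1, Hist2h2aa2, Hist2h3b and Hist2h3c1, each of which lies within another annotated gene. Windows shared with that gene counted as not unique, so for these 4 the share does not measure likeness to other members. Other members shared windows in part with overlapping genes, as Hist3h2a with Trim17 (29.8%) and Hist2h2ab with Gm15444 (59.4%). Many H2a genes also overlap an antisense gene annotated as a miRNA, as Hist1h2ak does with Gm44454 (13.3% of windows). The unique shares used below include such windows. In 3 every window was unique, Hist1h1b, Hist2h2be and Hist2h4, and the median member had 41.8% unique windows. The authors' posterior SD, the spread of a gene's count over ways of dividing shared reads, was over 5% of the posterior mean in both libraries for 21 of 45 members with 50 counts or more. Over all genes the figure was 2.92%. A posterior SD of 0 in both libraries was found for 5 of 45 members and 67.7% of all genes. Among these 45 the widest in both libraries was Hist2h3c1, at 46.6% and 56.2% of the posterior mean. By the average of both libraries Hist1h2ai, at 39.8% and 16.8%, and Hist1h2ah, at 26.8% and 29.7%, came next at nearly the same value. Across the 29 members with both values, Spearman's rho of unique share and posterior SD was -0.69 in replicate 1 and -0.68 in replicate 2, as a description over genes that share sequence and library. The posterior SD here is a percentage of the count, and differences in count between members were not accounted for.

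**Figure D5:**
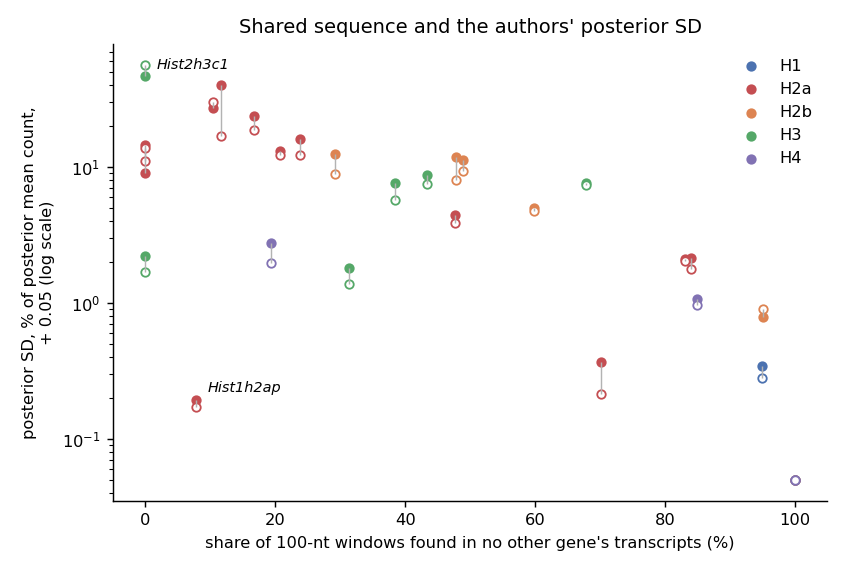
Posterior SD as a percentage of the posterior mean count (plus 0.05, log axis) against the share of unique 100-nt windows, for 29 members with 50 counts or more, replicate 1 filled and replicate 2 open. Hist1h2ap lies low at 7.83% unique windows, and the 3 members at 100% all have a posterior SD of 0.

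Hist1h2ap had a low posterior SD for its share of unique windows, but the percentage is relative to the count, and its count was the highest. In counts its posterior SD was 59.3 and 81.2 in replicates 1 and 2. That was above Hist1h2ae (42.0 and 56.0) and below Hist2h2aa1 (67.8 and 107). Only 7.83% of its windows were unique and it shared 92.2% with Hist1h2ao, yet its posterior SD was 0.145% and 0.121% of the mean. Hist1h2ao, with 7.35% unique windows, had 0 and 32.7 expected counts and a posterior SD of 118% and 58.4%. The deposited estimates put 41045 and 67410 counts on Hist1h2ap, and other divisions of the shared reads were not tested. By the log2 ratio on the TPM + 1 scale, averaged over both libraries, the posterior mean differed most from TPM in Hist1h3h, Hist1h2ao and Hist1h4m. Hist2h3c1 came next and differed most in replicate 2. It stood at 2.93 and 2.24 TPM but at 1.86 and 1.13 posterior mean TPM, from 157 and 162 expected counts. Hist1h3h stood at 0 and 4.98 TPM but at 1.79 and 5.38 posterior mean TPM, Hist1h2ao at 0 and 2.04 TPM but at 1.16 and 3.04, and Hist1h4m at 0 in both but at 0.559 and 0.475.

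Overlapping genes limit some values further, since the sources do not state whether strand was used. Hist2h2aa1, Hist2h2aa2, Hist2h3b and Hist2h2ab have antisense partners, Gm20633, Gm20632, Gm20628 and Gm15444, which stood between 0 and 1.65 TPM. Hist1h4b has the antisense gene 4930558J22Rik, at 0.186 and 0.320 TPM. On the same strand, Gm20634 overlaps Hist2h2aa1 and Hist2h3c1 and stood at 1.18 and 1.14 TPM. Hist1h2be and Hist1h1e overlap in part on the same strand, and Hist3h2a lies in Trim17. Of the 4 members with 2 or more transcripts, Hist1h2be drew 87.7% and 83.7% of its TPM from a transcript annotated as processed and noncoding. Hist1h2br drew 100% and 41.4% of its low level from a transcript annotated for nonsense-mediated decay.

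The libraries were compared as the log2 ratio of replicate 1 over replicate 2, on the TPM + 1 scale, for genes that reached 5 TPM in either library. The 41 such members had a median of -0.21 and ran from -1.20 to 0.36, and the 8781 genes of any kind had a median of 0.04. Past 2-fold stood 1 of 41 members (Hist1h2ai, 6.90 TPM in replicate 1 and 17.1 TPM in replicate 2), against 0.672% of all genes. Split by direction, 0 members were past 2-fold higher in replicate 1 (0.41% of all genes) and 1 was past it lower (0.262%). Lower in replicate 1 were 27 of 41 members, against 39.2% of all genes. The count was 31 with TMM (53.0% of all genes), 32 with median-of-ratios (53.7%) and 35 with spike-in scaling (73.5%). These scalings moved all genes, and the members' median stayed 0.25 to 0.27 below that of all genes under each of them, against 0.26 with TPM. The next widest after Hist1h2ai were Hist1h2ag with a log2 ratio of -0.72, Hist2h2aa1 with -0.57, Hist1h2bn with -0.52, Hist1h4h with -0.46 and Hist1h2ae with -0.42, all lower in replicate 1. Of these 6, all but Hist1h2ae had a posterior SD over 5% of the mean in both libraries. By type, the lower members in replicate 1 were 4 of 4 H1, 10 of 14 H2a, 3 of 9 H2b, 5 of 8 H3 and 5 of 6 H4 genes. The authors' intervals, whose level the sources do not state, did not overlap and lay lower in replicate 1 for 6 of 41 members (14.6%, against 10.3% of all genes). They lay higher in replicate 1 for 2 members (4.88%, against 19.2%). The 6 were Hist1h2ap, Hist1h4d, Hist1h2ae, Hist1h3i, Hist2h3b and Hist2h4, and the 2 were Hist1h2bc and Hist2h2be. The log2 ratio of Hist1h2bc was 0.14 but -0.01 with spike-in scaling, and that of Hist2h2be was 0.21 and 0.08. The hepatocyte genes moved the other way between the libraries, and their part in this difference was not tested. No p-value can be given with 1 library per side.

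The replacement variants are histone genes whose use is not limited to S phase, mostly with polyadenylated messengers. Priming by oligo(dT) or at random is not given in the sources used here. Its part in comparisons of the class with these variants and with the S phase and mitosis genes was not tested. The 11 listed variants summed to 3953 and 4283 TPM. The class stood at 1.31 and 1.43 times that sum in replicates 1 and 2, and without Hist1h2ap at 0.438 and 0.456 times. H3f3a alone, a replacement H3 gene, stood at 1943 and 2099 TPM, above all 12 H3 members together at 276 and 333 TPM. Expected counts gave the other order, with a log2 ratio of the class over the variants of -0.86 on average in place of 0.45 with TPM. The direction of this comparison thus changed with length correction and with the removal of 1 gene.

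Of 24 listed genes for histone gene transcription and end processing, 22 stood at 1 TPM or more in both libraries (53.1% of all protein-coding genes did) and 18 at 10 TPM or more. The other 2 were Rnu7 and Zfp473. Slbp, which binds histone stem-loops, stood at 233 and 255 TPM, and Casp8ap2, which joins the processing complex, at 25.0 and 24.6 TPM. Npat stood at 6.40 and 6.92 TPM, and Hinfp, an activator of H4 genes, at 8.28 and 7.22 TPM. Of the 2 proteins particular to the U7 particle, Lsm10 stood at 23.6 and 24.7 TPM and Lsm11 at 2.32 and 2.15 TPM. The U7 RNA itself, Rnu7, is shorter than the lower size limit of 200 nt given in the labels, and had a count of 0 in both libraries. Zfp473, also tied to end processing, stood at 0.963 and 0.867 TPM.

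All 15 listed histone chaperones and assembly factors stood at 1 TPM or more in both libraries. Asf1b, which hands H3 and H4 on during replication, stood at 108 and 109 TPM, Nasp, an H3 and H4 store, at 39.4 and 46.0 TPM, and Chaf1a and Chaf1b, subunits of the assembly factor at the fork, at 25.4 and 23.1 and at 37.2 and 37.3 TPM. Hira, the chaperone of replacement H3, was the lowest at 4.55 and 3.95 TPM. The 4 listed noncoding RNAs without a tail summed to 162 and 175 TPM, very unevenly. Rn7sk stood at 101 and 108 TPM and Rpph1 at 57.1 and 64.8 TPM. Rmrp stood at only 2.60 and 1.89 TPM and Terc at 0.497 and 0.0723 TPM. The 8 S phase genes summed to 1449 and 1492 TPM and the 6 mitosis genes to 1118 and 1161 TPM. In TPM the class sum lay above each of these sums in both libraries, also without Hist1h2ap, at 1729 and 1953 TPM. This order did not hold without length correction. In scaled expected counts the class stood at 2013 and 2436, below the S phase genes at 2896 and 3049 in both libraries. It was below the mitosis genes (2262 and 2349) in replicate 1 and above them in replicate 2. Without Hist1h2ap it stood at 807 and 911, below both lists.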

How the data were processed

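A gene table and a transcript table were used for each library. The descriptions deposited with them name mm10 and annotation M4. Their columns are named as in RSEM output. Aligner, quantifier and strand setting: not given in the sources used here. Expected counts, as the authors deposited them, are unscaled estimates of reads per gene and need not be whole. Both TPM estimates that the authors deposited, the point estimate and the posterior mean, are corrected for length and library total, spike-ins included. The percent of a gene's TPM held by each transcript and the posterior SD of counts were used as deposited by the authors. Effective lengths were 99 nt below the lengths for all members, so that TPM of short genes depends strongly on the annotated length.

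TPM was rescaled to its usual total after 97 spike-in entries were left out, and the authors' intervals by the posterior mean total. Names and coordinates came from GENCODE M21 (GRCm38, the same assembly), which matched 42462 of 43346 genes. The 3 genes of the rule without a row were left out. Promoters came from RefSeq (GRCm38.p6) and transcripts from GENCODE M21. The members and lists were chosen with earlier results of these data known. The genes named are, by rule, the 4 highest and the lowest of each type, those that differed most between libraries or between TPM and posterior mean, those with the widest posterior SD, all members outside the Hist1 locus, those at 0 and the genes of the lists. Some genes under this rule are not printed. The remaining members are given with their values to account for the class.

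Where a library had no count, up to 3 counts were allowed for, which covers counting error only. The 2-fold rule between libraries was tested on simulated data with sampling noise only and no reads shared between genes. That test does not cover the wider spread of these libraries or the division of reads among members. The labels give the libraries as biological replicates, and they were treated as 2 samples. Their counts differed by more than sampling noise (chi-square per degree of freedom 20.0 over 15515 genes), so they are not 1 library deposited again. This value does not show that the animals were separate. With 1 group no test between groups was possible. Alternatives were posterior mean TPM, expected counts scaled to the library total, other limits and pseudocounts, scaling by TMM (edgeR 4.0.16), by median of ratios (DESeq2 1.42.0) or by spike-ins, removal of the highest members, and each library alone. Versions were R 4.3.3, Python 3.11.15, SciPy 1.17.1, pandas 2.3.3, matplotlib 3.10.9 and NumPy 2.4.6.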

Additional observations from a re-analysis of the deposited data

Results flagged for a closer look

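Histone-named genes annotated as pseudogenes lie outside the class as defined, and 3 of them held signal above the limit of 3 counts in both libraries. Hist1h2aj (unprocessed pseudogene, chr13:21721457-21721808) stood at 4.16 and 4.86 TPM in replicates 1 and 2, a mean of 4.51 TPM, from 32.8 and 51.6 expected counts. Hist3h2bb-ps (chr11:58954048-58954512) stood at 1.50 and 1.47 TPM, a mean of 1.48 TPM. Hist1h2al (chr13:51202727-51203065) stood at 0.621 and 1.00 TPM, a mean of 0.811 TPM. Added to the class, they raised its mean sum to 5664 TPM, against 5658 TPM without them. The share of these reads that belongs to the members they resemble was not tested.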

How the results depend on the processing

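Of 40 values under alternatives other than each library alone, 20 kept their direction and stayed within a set limit, 18 moved and 2 changed sign. The limit was the SD over the libraries for sums, shares and the class ratio, and 1.5 times for numbers of members. For the median log2 ratio between the libraries it was the counting error of the class counts alone, which leaves out other spread. Expected counts scaled to the same total as TPM, without length correction, gave 2224 for the class, 167 for H1, 1549 for H2a, 190.1 for H2b, 113 for H3 and 206 for H4, and a share of 61.3% for Hist1h2ap. Without Hist1h2ap the class summed to 1841 TPM. Without the highest member of each type, the sums were 107 TPM for H1, 458 for H2a, 87.9 for H2b, 164 for H3 and 129.8 for H4. The log2 ratio of the class over the replacement variants turned to -0.86 with expected counts and to -0.19 without the highest gene of each list. The median log2 ratio of replicate 1 over replicate 2 was -0.16 with no filter, -0.28 with TMM, -0.29 with median-of-ratios and -0.35 with spike-in scaling. Spike-in scaling also put the median of all genes at -0.10, so that members lay 0.25 below it. With no filter 4 members passed 2-fold. Each library alone, which with 2 libraries must lie within 1 SD of their mean, gave 5170 to 6145 TPM for the class, 176 to 188 for H1, 3854 to 4694 for H2a, 317 to 333 for H2b, 276 to 333 for H3 and 531 to 612 for H4, 53 to 56 members at 1 TPM, a share of 66.6% to 68.2% and a log2 class ratio of 0.39 to 0.52. No paired analysis was possible because the design holds 1 group. Low members rest on few counts, and single members also depend on how reads were divided among near-identical genes. The manual linked to the samples is for a SMARTer Ultra Low kit. Whether priming was by oligo(dT) or at random is not given in the sources used here, and its part in the level of messengers without a tail was not tested.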
